A study of Mus musculus with 3 samples.

Results

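The genes described here code for proteins known from neurodegenerative disease: App, Aplp1, Aplp2, Bace1, Mapt and Prnp. They were chosen by symbol, 6 of the 31053 genes in the deposited matrices. The rule uses no measured value, but the choice was made with earlier results of these data known. RNA was captured from fresh frozen, 10 µm brain sections of C57BL/6J mice on Visium arrays, which carry barcoded spots and count molecules by unique molecular identifiers (UMIs). The groups, of 1 section each, were O-Ex (labelled exercise), O-Ctrl and Y-Ctrl (both labelled control). The series asks how exercise acts on brain aging, and the prefixes O and Y were taken to mean old and young. The sources used here give neither ages, sex nor the kind and length of exercise. The molecule is labelled as nuclear RNA, but the protocol places intact sections on the array, and values were taken as tissue RNA beneath each spot.

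Since each group is 1 section, nothing below could be tested against replicates, and condition, animal and section cannot be told apart. Total UMIs were 53196124 in O-Ex, 58234443 in O-Ctrl and 62348064 in Y-Ctrl. Spots with at least 3000 UMIs were used, 3332 in O-Ex, 3498 in O-Ctrl and 3409 in Y-Ctrl, with a median of 13685, 14900 and 15718 UMIs. All sections share the 4992 barcodes of the array, which name positions and not cells. Transcripts encoded by mitochondria took 17.8% of UMIs in O-Ex and 19.7% in each control. Levels are UMIs of a gene per 1000000 UMIs of the section or region (CPM), with exact 95% Poisson intervals, which cover counting error only. Several cells can lie under 1 spot, and fewer cells of a type and less RNA per cell cannot be told apart. Because transcripts are captured at their poly(A) tail and capture differs between transcripts, levels were compared within a gene and not between genes.

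App codes for the amyloid precursor protein, a membrane protein that BACE1 and then γ-secretase can cut to release amyloid-β, the peptide of Alzheimer plaques. Aplp1 and Aplp2 code for its relatives, which lack the amyloid-β stretch, and Bace1 for the β-secretase itself. Mapt codes for tau, which binds axonal microtubules and forms tangles in Alzheimer disease and other tauopathies. Prnp codes for the cellular prion protein, a lipid-anchored surface protein whose misfolded form causes prion disease.

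On GRCm38 (mm10) in the GENCODE M21 annotation, App lies on the minus strand of chromosome 16 from 84949685 to 85173766, and Mapt on the plus strand of chromosome 11 from 104231390 to 104332090. Aplp1 lies on the minus strand of chromosome 7 from 30434982 to 30445535. Aplp2 is on the minus strand of chromosome 9 from 31149557 to 31211815, and Bace1 on the plus strand of the same chromosome from 45838580 to 45864399. Prnp is on the plus strand of chromosome 2 from 131909928 to 131938429. All are protein coding. No annotated gene overlaps Aplp1 or Aplp2. The 5 genes that overlap App, the 3 that overlap Bace1 and the 3 that overlap Mapt lie on the other strand, and Prn, which overlaps Prnp on the same strand, had 0 counts in every section. Whether the counting used the strand, and how it treated reads shared with Prn, is not given in the sources used here, so reads of overlapping genes cannot be told apart. Of those over Mapt, Gm11659 had 0 counts, and Gm16536 over Bace1 had 14.5 CPM in O-Ex, 14.6 CPM in O-Ctrl and 15.9 CPM in Y-Ctrl.

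Over whole sections the widest gap in proportion between O-Ctrl and Y-Ctrl was that of Mapt. Mapt stood at 137 CPM [134 to 141] in O-Ex and 129 CPM [126 to 132] in O-Ctrl, against 90.9 CPM [88.5 to 93.3] in Y-Ctrl. Both O sections were above the Y section by far more than counting error. App stood at 978 CPM [969 to 986] in O-Ex and 904 CPM [896 to 912] in O-Ctrl, against 877 CPM [870.0 to 885] in Y-Ctrl, an order without overlap of the intervals. Aplp1 had 756 CPM [748 to 763] in O-Ex and 758 CPM [751 to 765] in O-Ctrl, against 678 CPM [672 to 685] in Y-Ctrl, so the intervals of the O sections overlapped and lay above that of Y-Ctrl.

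Aplp2 had 343 CPM [338 to 348] in O-Ex and 302 CPM [297 to 306] in O-Ctrl, against 316 CPM [312 to 321] in Y-Ctrl. Prnp had 763 CPM [755 to 770.1] in O-Ex and 704 CPM [697 to 711] in O-Ctrl, against 726 CPM [719 to 732] in Y-Ctrl. For these genes O-Ex was highest and O-Ctrl lowest. Bace1, which had the fewest UMIs of the 6, had 41.3 CPM [39.5 to 43.0] in O-Ex and 41.4 CPM [39.7 to 43.1] in O-Ctrl, against 38.0 CPM [36.4 to 39.5] in Y-Ctrl. Its intervals in the O sections overlapped, and that of Y-Ctrl lay just under the one of O-Ctrl. Whole-section values also follow which regions a section holds, as the levels by region below show.

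**Figure D1:**
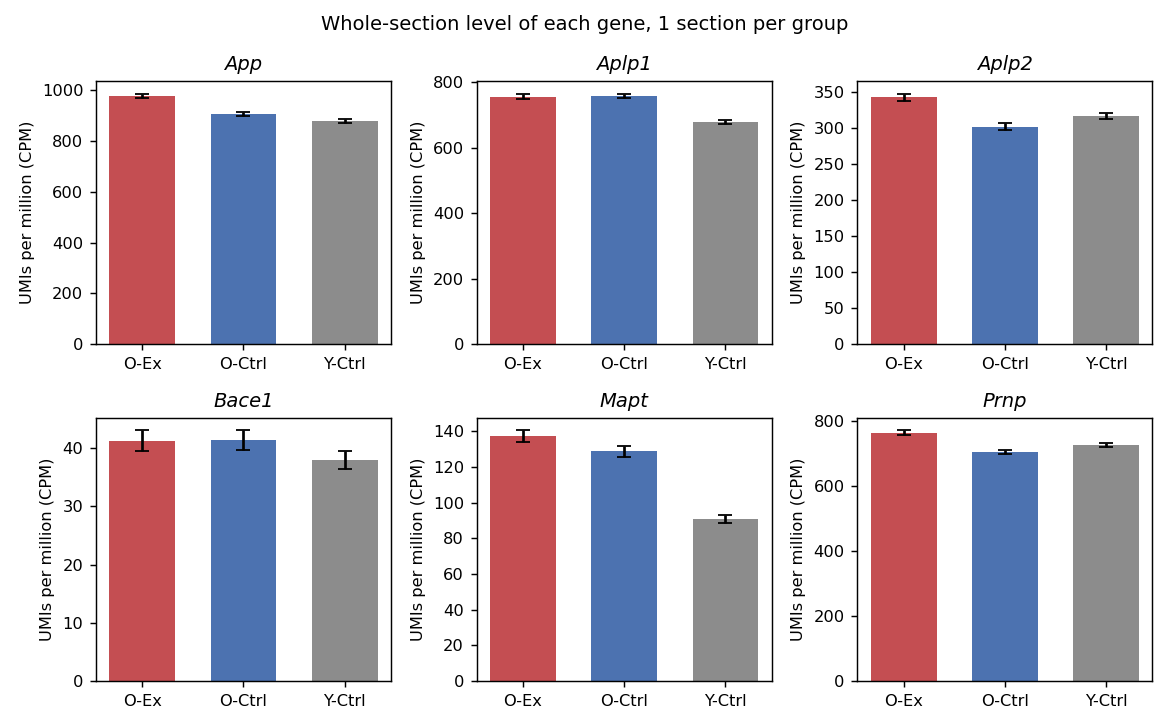
Bars give the level of each gene in CPM over all spots with at least 3000 UMIs of O-Ex, O-Ctrl and Y-Ctrl, and error bars are exact 95% Poisson intervals. Mapt stood at 137 CPM in O-Ex and 129 CPM in O-Ctrl, against 90.9 CPM in Y-Ctrl, while the other genes differed less between sections.

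The spots of all sections were clustered together with the 6 genes left out, and gave 20 clusters. Of these, 19 had 20 or more spots in each section and are called regions, and 14 of the 19 could be named from marker lists. The remaining cluster, a thalamic one led by Calb2, held 1 spot in O-Ex, 2 in O-Ctrl and 208 in Y-Ctrl and was left out. Each gene is described from its highest to its lowest region, ordered by the mean of the 3 sections, and neighbours whose ranges over the sections overlap are not told apart.

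App was highest in white matter, the region whose leading genes include the myelin genes Mal and Cldn11, with 1359.7 CPM in O-Ex, 1376 CPM in O-Ctrl and 1331 CPM in Y-Ctrl. Hippocampal CA1 followed with 1416 CPM in O-Ex, 1124 CPM in O-Ctrl and 1127 CPM in Y-Ctrl, and in O-Ex it was above white matter. CA2 and CA3 and the thalamus led by Prkcd came next, and these 4 regions stood above all others in every section. Its lowest region was the dentate gyrus, with 647 CPM in O-Ex, 493 CPM in O-Ctrl and 478 CPM in Y-Ctrl. The range was shallow: white matter stood 2.10-fold above the dentate gyrus in O-Ex, 2.79-fold in O-Ctrl and 2.78-fold in Y-Ctrl. Of 18 neighbouring pairs of regions, 16 overlapped.

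Aplp1 was set apart by white matter, at 1794 CPM in O-Ex, 1800.3 CPM in O-Ctrl and 1781 CPM in Y-Ctrl. The highest value outside it was 874 CPM, in the dentate gyrus of O-Ex, and no other pair of neighbours was separated. Striatum, the second region, had 866 CPM in O-Ex, 783 CPM in O-Ctrl and 689 CPM in Y-Ctrl. It had 22 spots in O-Ex, 171 in O-Ctrl and 164 in Y-Ctrl, and its summed level of 8 oligodendrocyte markers was 12659 CPM in O-Ex, 4557 CPM in O-Ctrl and 5226 CPM in Y-Ctrl. Choroid plexus, the source of cerebrospinal fluid, was lowest at 398 CPM in O-Ex, 478 CPM in O-Ctrl and 427 CPM in Y-Ctrl.

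Aplp2 had another map. Its highest region was the thalamus led by Prkcd, with 591 CPM in O-Ex, 584 CPM in O-Ctrl and 624 CPM in Y-Ctrl, above the next region in every section. An unnamed cluster led by Ctxn3, Cbln1 and Cbln4 came second, followed by white matter and choroid plexus. Its lowest region on average was CA1, where App was near its highest, with 247 CPM in O-Ex, 177 CPM in O-Ctrl and 160.2 CPM in Y-Ctrl. The unnamed cluster led by Cabp7 and Ddn was lower than CA1 in O-Ex, at 243 CPM, and in O-Ctrl, at 172 CPM, and stood at 185 CPM in Y-Ctrl.

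Prnp was highest in CA1, at 1735 CPM in O-Ex, 1391 CPM in O-Ctrl and 1533 CPM in Y-Ctrl, with no overlap with any other region. CA2 and CA3 came second, at 1154 CPM in O-Ex, 940.1 CPM in O-Ctrl and 953 CPM in Y-Ctrl, and overlapped with the thalamus. White matter was only the 13th of 19 regions. Choroid plexus was lowest at 235 CPM in O-Ex, 314 CPM in O-Ctrl and 284 CPM in Y-Ctrl. Prnp had more separated neighbours than the other genes, 3 of 18 pairs.

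Bace1 was highest on average in white matter, with 78.9 CPM [69.3 to 89.5] in O-Ex and 62.5 CPM [55.4 to 70.2] in O-Ctrl, against 53.3 CPM [46.2 to 61.1] in Y-Ctrl. In Y-Ctrl CA2 and CA3 stood slightly higher at 54.9 CPM. Choroid plexus was lowest, with 8.94 CPM in O-Ex from 24 UMIs, 10.1 CPM in O-Ctrl from 12 UMIs and 16.8 CPM in Y-Ctrl from 17 UMIs. That lowest place was the only one separated from its neighbour.

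Mapt had the steepest map of the 6 genes in every section. White matter held 344 CPM [324 to 365] in O-Ex and 263 CPM [248 to 278] in O-Ctrl, against 178 CPM [165 to 192] in Y-Ctrl. It was the highest region in each section, and the range over the sections did not reach that of the second region. Choroid plexus was lowest, with 16.0 CPM [11.6 to 21.6] in O-Ex from 43 UMIs, 37.2 CPM [27.0 to 49.9] in O-Ctrl from 44 UMIs and 23.7 CPM [15.2 to 35.3] in Y-Ctrl from 24 UMIs. White matter was thus 21.5-fold above choroid plexus in O-Ex, 7.06-fold in O-Ctrl and 7.52-fold in Y-Ctrl. Of 18 neighbouring pairs of regions, 16 overlapped.

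**Figure D2:**
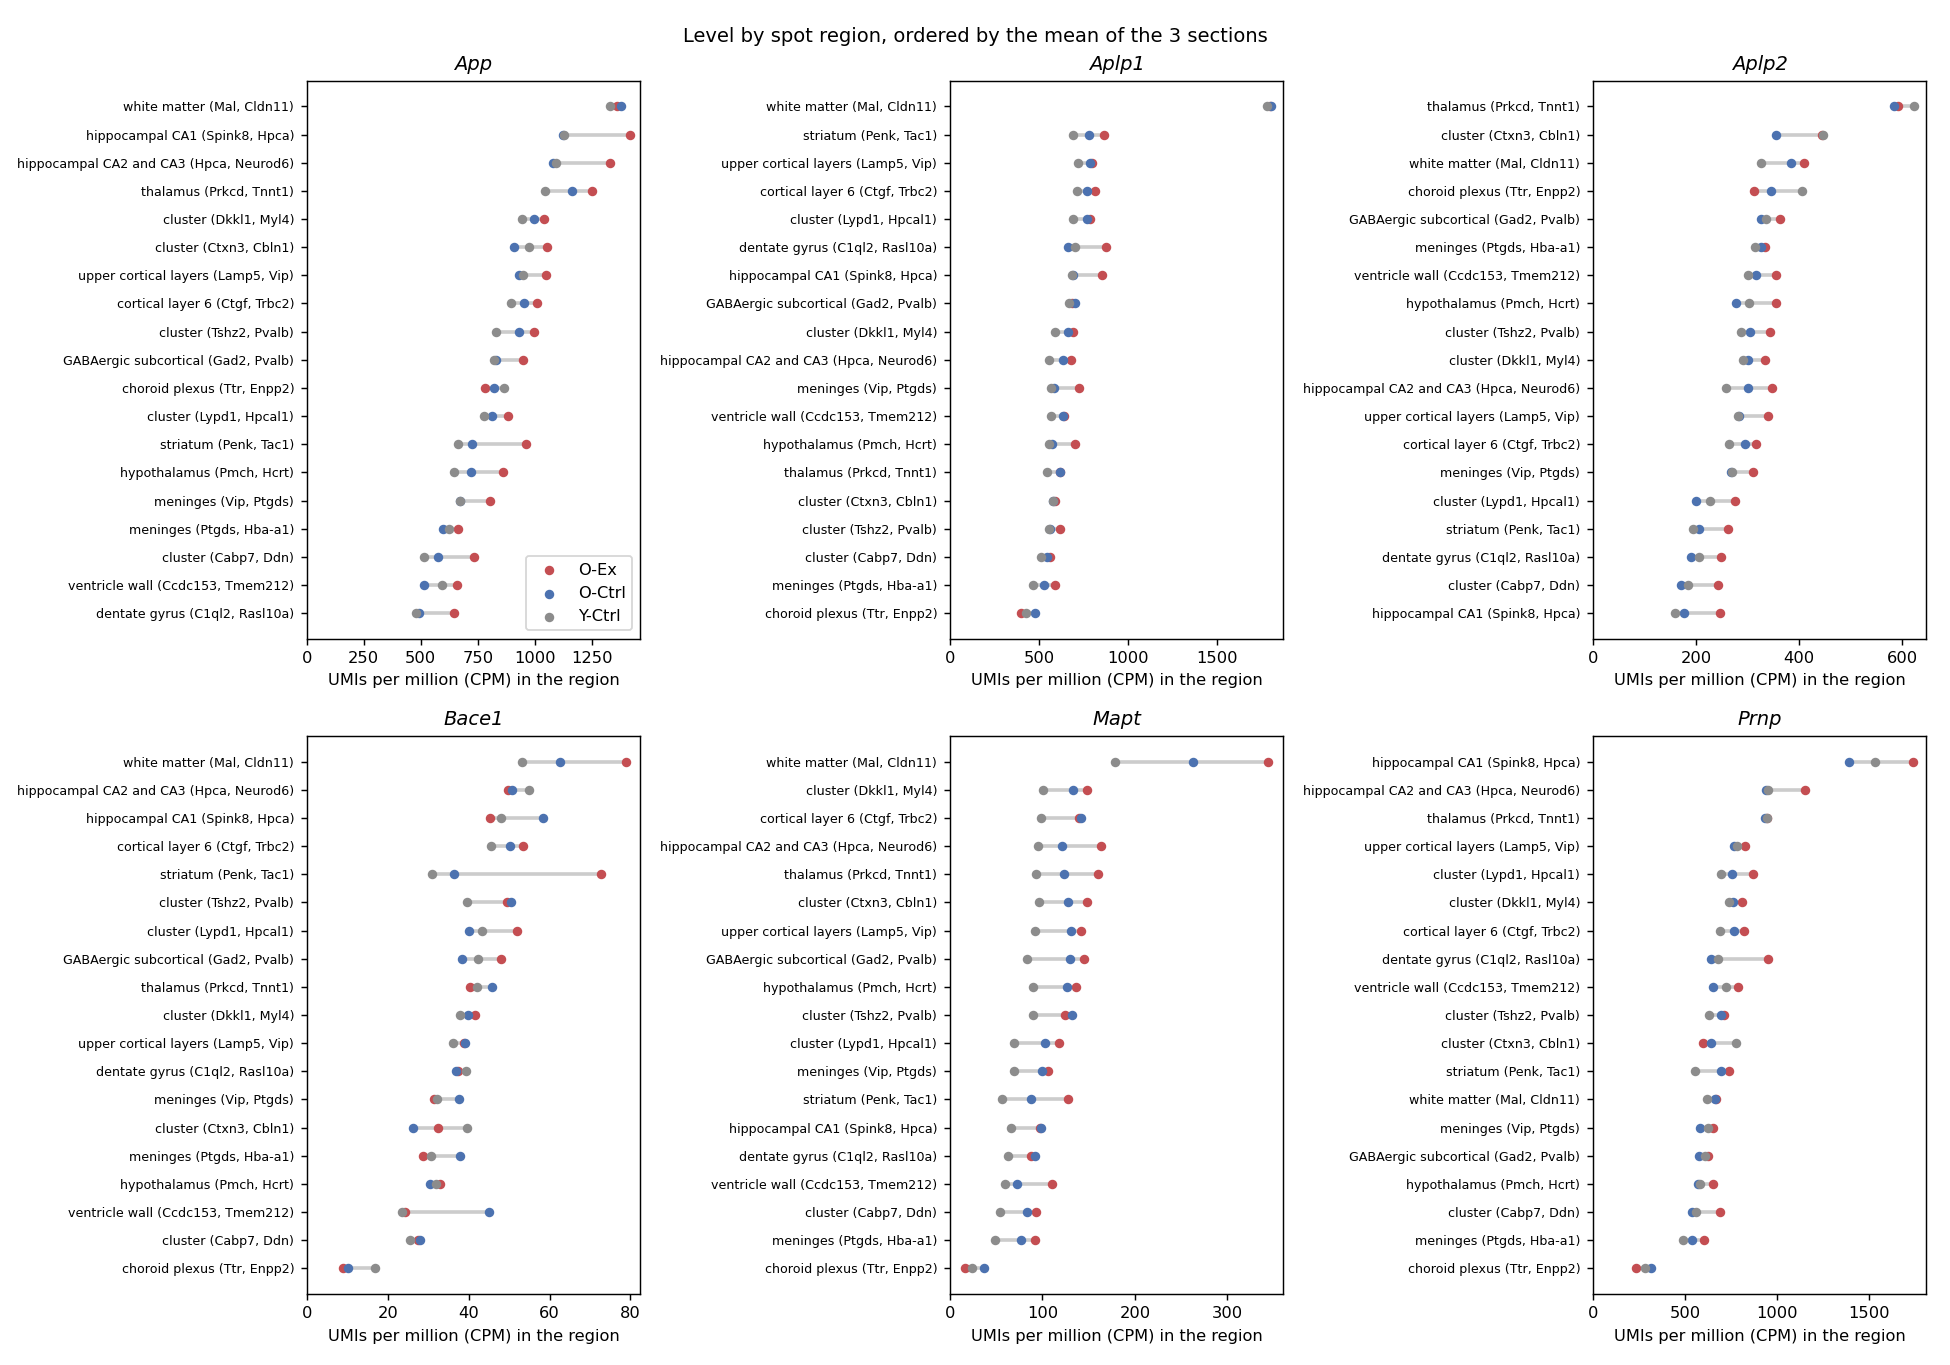
Each panel gives the level of 1 gene in CPM (horizontal axis) in 19 spot regions named with 2 of their leading genes, ordered by the mean of the sections, with a point for each of O-Ex, O-Ctrl and Y-Ctrl. White matter stands apart for Aplp1 (1794, 1800.3 and 1781 CPM in O-Ex, O-Ctrl and Y-Ctrl) and Mapt (344, 263 and 178 CPM in the same order), the thalamus led by Prkcd for Aplp2 and CA1 for Prnp.

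To follow the myelin gradient without cluster borders, spots were put into 5 groups by their summed level of 8 oligodendrocyte markers, with the same limits in all sections. The groups hold all spots, also the thalamic cluster led by Calb2 with 208 spots in Y-Ctrl, and do not match regions between sections. Oligodendrocytes make myelin around axons. App, Aplp1, Bace1 and Mapt were higher in group 5 than in each of groups 1 to 4 in every section. Aplp1 in groups 4 and 5 had 669 and 1359 CPM in O-Ex, 639 and 1404 CPM in O-Ctrl, and 620.3 and 1359 CPM in Y-Ctrl. Mapt in the same groups had 140.1 and 253 CPM in O-Ex, 117 and 212 CPM in O-Ctrl, and 92.8 and 138 CPM in Y-Ctrl.

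Prnp was highest in group 1, with 873 CPM in O-Ex, 793 CPM in O-Ctrl and 796 CPM in Y-Ctrl. Over groups 2 to 5 it had 782, 694, 705 and 709 CPM in O-Ex, 680.1, 662, 677 and 662 CPM in O-Ctrl, and 682, 711, 734 and 651 CPM in Y-Ctrl. It therefore did not fall step by step along the gradient in any section. Aplp2 was higher in group 5 than in group 1 in every section, with 401 against 314 CPM in O-Ex, 376 against 261 CPM in O-Ctrl and 340 against 263 CPM in Y-Ctrl. In Y-Ctrl its peak was group 4, at 382 CPM.

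**Figure D3:**
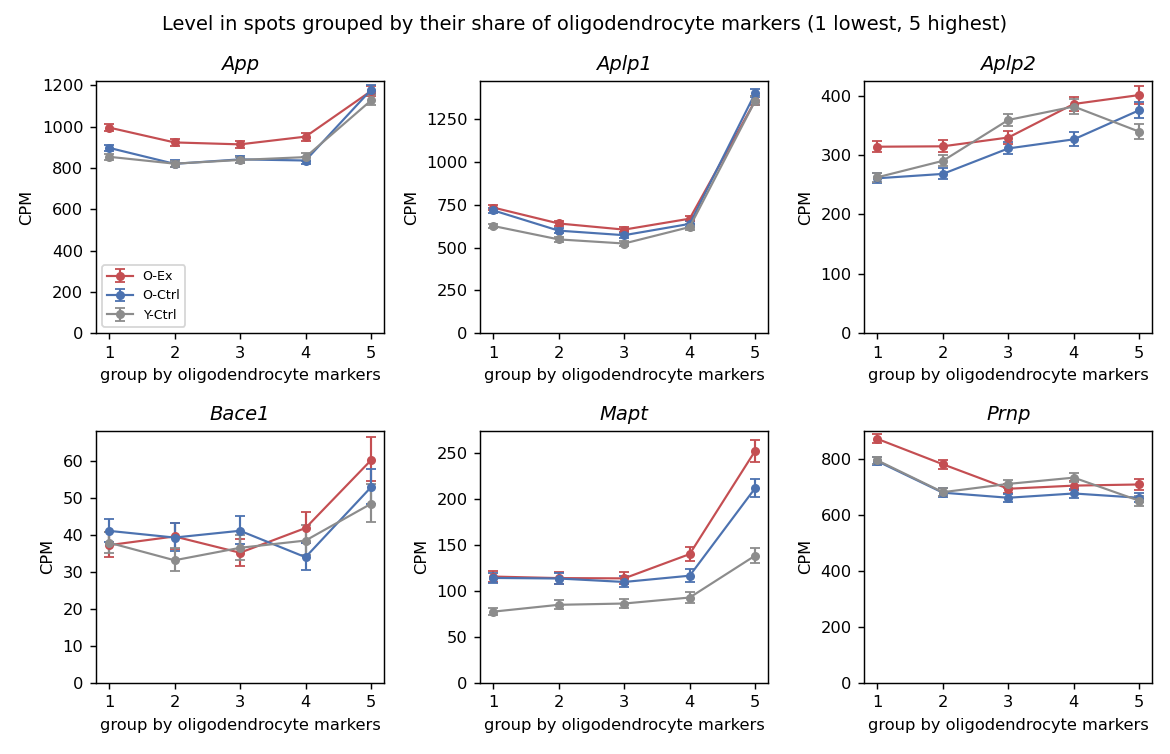
Level of each gene in CPM (vertical axis) in 5 groups of spots with rising levels of 8 oligodendrocyte markers, for O-Ex, O-Ctrl and Y-Ctrl, with exact 95% Poisson intervals. Mapt in Y-Ctrl lies below both O sections in every group, and in group 5 O-Ex (253 CPM) is above O-Ctrl (212 CPM).

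O-Ctrl was set against Y-Ctrl to describe age. To limit the effect of which regions a section holds, the log2 ratio of CPM plus 5 was taken region by region. The 13 regions that had 50 or more spots in each section were used and averaged with equal weight. This is the region-matched ratio, and a gene at least 1.2-fold apart is called. It does not match the mix of cells within a region. In the ventricle wall, 10 neuronal markers summed to 1581 CPM in O-Ex, 1826 CPM in O-Ctrl and 3192 CPM in Y-Ctrl. Mapt was called, at a log2 ratio of 0.49 [0.41 to 0.57], 1.41-fold, where the interval covers counting error. It was the only one of the 6, and it was higher in O-Ctrl. Of the 9013 genes whose mean was 10 CPM or more, 2.85% were called in either direction and 1.59% as higher in O-Ctrl. At 1.5-fold none of the 6 was called, against 0.355% of all genes. By size of ratio Mapt took place 39 from the top of the 9013 genes.

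Mapt was higher in O-Ctrl in all 13 matched regions and in all 6 smaller regions. In the matched regions the log2 ratio ran from 0.27 in the ventricle wall to 0.61 in the meninges led by Ptgds and Hba-a1. Both ends rest on few UMIs. The ventricle wall had 65 in O-Ctrl and 76 in Y-Ctrl, and those meninges 67 in O-Ctrl and 43 in Y-Ctrl. In 12 of all 19 regions the counting intervals of O-Ctrl and Y-Ctrl did not overlap. Such counts can rise with the UMIs of a gene, and no share over all genes was taken for them. In upper cortical layers, Mapt had 130.5 CPM in O-Ctrl, against 92.5 CPM in Y-Ctrl. In the hypothalamus it had 127 CPM in O-Ctrl, against 89.6 CPM in Y-Ctrl, and in CA1 99.1 CPM in O-Ctrl, against 66.0 CPM in Y-Ctrl. Along the myelin gradient the log2 ratio was 0.53, 0.40, 0.33, 0.31 and 0.60 over the 5 groups. With every spot thinned to 3000 UMIs, 31.0% of spots in O-Ctrl had a UMI of Mapt, against 22.4% in Y-Ctrl. In the choroid plexus, which should hold little tau, the shares were 7.89% of 38 spots in O-Ctrl and 4.44% of 45 in Y-Ctrl. Unthinned, the log2 ratio of Mapt there was 0.56, from 44 UMIs in O-Ctrl and 24 in Y-Ctrl, with overlapping counting intervals. The O-Ex share there was 5.10% of 98 spots, and these are too few spots to compare the shares. Median depths there before thinning were 32887 UMIs in O-Ctrl and 23039 in Y-Ctrl. Unthinned, 77.8% of all spots in O-Ctrl and 69.1% in Y-Ctrl had a UMI of Mapt, at median depths of 14900 and 15718 UMIs. Within 200 kb of Mapt 3 other genes passed the minimum of 10 CPM, a comparison chosen after their values were seen. Their log2 ratios were -0.02 for Kansl1, a chromatin regulator, -0.06 for Cdc27, a cell cycle gene, and -0.06 for Crhr1, a stress hormone receptor.

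The other members stood closer together. Aplp1 had a log2 ratio of 0.10 [0.08 to 0.13] and was higher in O-Ctrl in 13 of 13 matched regions, though in white matter by only 0.02. App had a ratio of 0.05 [0.02 to 0.08], higher in 10 of 13. Bace1 had 0.16 [0.04 to 0.27], higher in 10 of 13, and its largest value came from the ventricle wall, with 45.0 CPM in O-Ctrl from 40 UMIs, against 23.6 CPM in Y-Ctrl from 30 UMIs. In none of the 19 regions were the intervals of Bace1 apart. Aplp2, at 0.01 [-0.03 to 0.05], and Prnp, at 0.02 [-0.01 to 0.04], had intervals that held 0, with 7 and 6 of 13 regions higher. White matter held the largest ratio of Aplp2, 0.23, from 384 CPM in O-Ctrl, against 327 CPM in Y-Ctrl. All 6 members had ratios above 0, with a median of 0.08, beside a median of -0.01 over all genes, of which 46.1% were above 0.

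O-Ex was set against O-Ctrl to describe exercise. No member was called at 1.2-fold, against 6.05% of all genes, and none at 1.5-fold, against 0.322%. The members were higher in O-Ex in 5 of 6 cases, with a median log2 ratio of 0.15, but 73.8% of all genes were higher too, with a median of 0.07. When TMM factors were used, 4 of 6 were higher, beside a median of 0.003 over all genes. Of the 545 genes called, 499 were higher in O-Ex and 46 lower, which became 192 and 151 when TMM factors were used to scale the sections. The direction of small ratios in this comparison can therefore rest on the scaling. App, Aplp2, Mapt and Prnp stayed higher in O-Ex with TMM factors, at smaller ratios, and Aplp1 did not.

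Aplp2 had the largest ratio, 0.20 [0.16 to 0.24], and was higher in O-Ex in 13 of 13 matched regions. It ranged from 0.02 in the thalamus led by Prkcd, its highest region, to 0.49 in the unnamed cluster led by Cabp7 and Ddn, with 243 CPM in O-Ex and 172 CPM in O-Ctrl. With spots thinned to 3000 UMIs its ratio was 0.26 and it was called. App had 0.17 [0.14 to 0.19] and was higher in 12 of 13, white matter being the exception at -0.02. In 13 of all 19 regions its counting intervals were apart, each time higher in O-Ex, a count again without a share over all genes. With TMM factors the ratio of App was 0.08. Prnp had 0.14 [0.11 to 0.16], higher in 13 of 13, with 0.01 in white matter. In CA1, one of the smaller regions with 30 spots in O-Ex and 27 in O-Ctrl, Prnp had 1735 CPM in O-Ex and 1391 CPM in O-Ctrl.

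Mapt had a log2 ratio of 0.19 [0.12 to 0.25], and its regions were uneven. White matter had 344 CPM in O-Ex and 263 CPM in O-Ctrl, a log2 ratio of 0.38. The thalamus led by Prkcd had 160.1 CPM in O-Ex and 124 CPM in O-Ctrl, and the ventricle wall 110.0 CPM in O-Ex and 73.1 CPM in O-Ctrl. In cortical layer 6 the values were 140.0 CPM in O-Ex and 142 CPM in O-Ctrl, and in the cluster led by Tshz2 and Pvalb 125 CPM in O-Ex and 132 CPM in O-Ctrl. Along the myelin gradient the ratio was 0.02, 0.01, 0.05, 0.26 and 0.25 over the 5 groups, and the counting intervals of O-Ex and O-Ctrl were apart in groups 4 and 5 and overlapped in groups 1 to 3. Choroid plexus went the other way, with 16.0 CPM in O-Ex and 37.2 CPM in O-Ctrl. Of all spots thinned to 3000 UMIs, 32.5% had a UMI of Mapt in O-Ex and 31.0% in O-Ctrl. Whether the regions differ in this ratio could not be tested.

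Aplp1 had 0.08 [0.06 to 0.11] and was -0.004 over the whole section, so its direction depends on the matching. Scaled by TMM, the ratios were 0.12 for Aplp2, 0.11 for Mapt, 0.08 for App, 0.05 for Prnp, -0.001 for Aplp1 and -0.11 for Bace1. Bace1 had -0.03 [-0.14 to 0.08] before that scaling, with 6 of 13 regions higher in O-Ex. Its lowest value came again from the ventricle wall, with 24.3 CPM in O-Ex from 38 UMIs and 45.0 CPM in O-Ctrl from 40 UMIs. Both comparisons use the O-Ctrl section, so a high or low O-Ctrl value enters both with opposite sign.

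**Figure D4:**
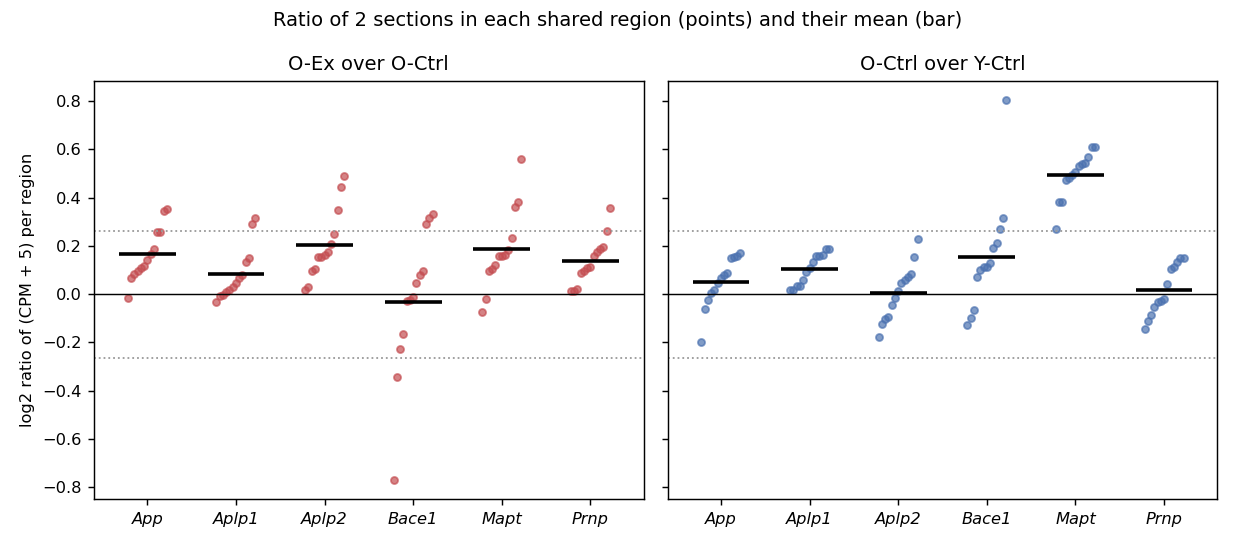
Log2 ratio of CPM plus 5 in each of the 13 matched regions (points) and their mean (bars) for O-Ex over O-Ctrl (left) and O-Ctrl over Y-Ctrl (right), with dotted lines at 1.2-fold. The points of Mapt lie between 0.27 and 0.61 for O-Ctrl over Y-Ctrl, all above 0, and those of Aplp2 and Prnp all lie above 0 for O-Ex over O-Ctrl.

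**Figure D5:**
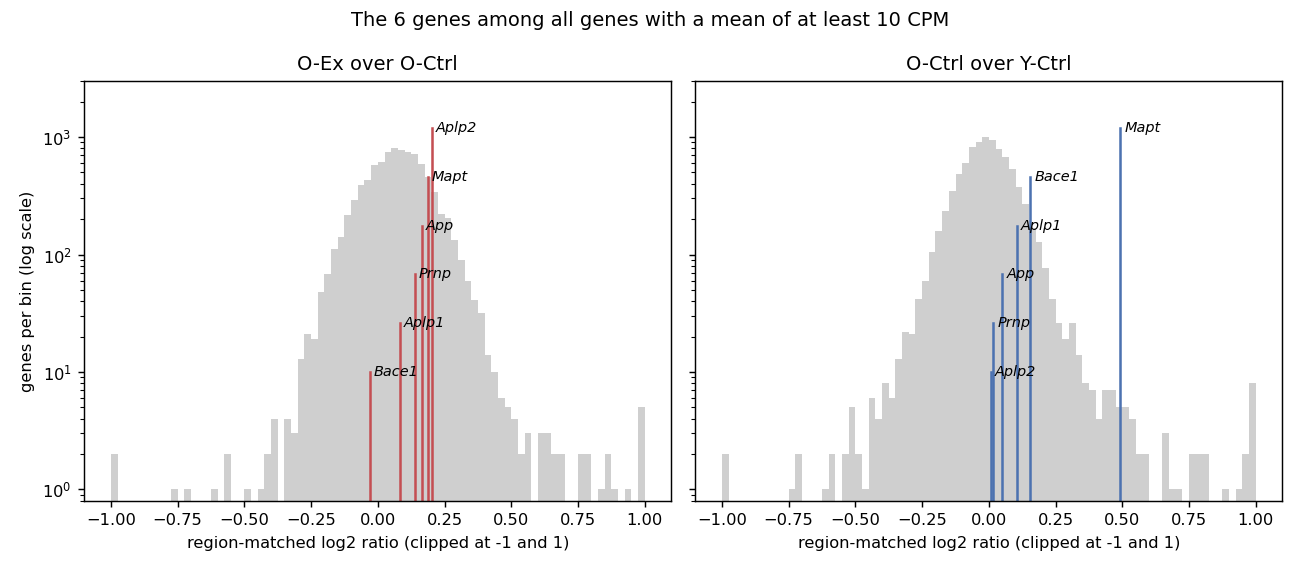
Number of genes (log scale) by region-matched log2 ratio among 9013 genes, with lines at the 6 genes, whose heights only separate the names, for O-Ex over O-Ctrl (left) and O-Ctrl over Y-Ctrl (right). At the right Mapt lies in the upper tail at 0.49, and at the left the 6 genes lie between -0.03 and 0.20.

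Other cells in the same spots also differed between sections. In white matter the summed level of 7 microglia markers was 1610 CPM in O-Ex, 1485 CPM in O-Ctrl and 851 CPM in Y-Ctrl, and that of 7 astrocyte markers 2195 CPM in O-Ex, 2096 CPM in O-Ctrl and 1490 CPM in Y-Ctrl. Both sums run in the same order as Mapt there, and so do the microglia markers over whole sections, at 502 CPM in O-Ex, 470 CPM in O-Ctrl and 365 CPM in Y-Ctrl. The 8 oligodendrocyte markers summed to 40425 CPM in O-Ex, 37366 CPM in O-Ctrl and 42693 CPM in Y-Ctrl, and 10 neuronal markers to 1726 CPM in O-Ex, 1395 CPM in O-Ctrl and 1371 CPM in Y-Ctrl. Choroid plexus markers, 5 genes, stood at 1931 CPM in O-Ex, 5666 CPM in O-Ctrl and 2294 CPM in Y-Ctrl. In white matter the neuronal sum too runs in the order of Mapt.

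Over whole sections the choroid plexus markers summed to 12703 CPM in O-Ex, 4941 CPM in O-Ctrl and 4047 CPM in Y-Ctrl, and 5 blood markers to 2039.5 CPM in O-Ex, 1099.9 CPM in O-Ctrl and 1134 CPM in Y-Ctrl. Both were thus highest in O-Ex. In the unnamed cluster led by Lypd1 and Hpcal1, one of the matched regions, the choroid plexus sum was 10915 CPM in O-Ex, 458 CPM in O-Ctrl and 396 CPM in Y-Ctrl, and Aplp2 there had a log2 ratio of 0.44 for O-Ex over O-Ctrl. Neuronal markers over whole sections were at 6036 CPM in O-Ex, 5834 CPM in O-Ctrl and 6037 CPM in Y-Ctrl. The oligodendrocyte sum was 6185 CPM in O-Ex, 6568 CPM in O-Ctrl and 6081 CPM in Y-Ctrl, which is the order of the Aplp1 levels over whole sections. No marker of these lists was at 0 over a whole section, and their part in the levels of the 6 genes and in the ratios was not tested.

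Across regions and sections, 57 points that share libraries and depth, the genes closest to each member in log2 level were listed as a description. Mapt was most like Dpysl2 (r = 0.90), the gene of the axon growth protein CRMP2, then Sez6l2 (r = 0.89) and the synaptotagmin gene Syt11 (r = 0.89). Bace1 was most like Tmem151a (r = 0.85), Syt11 (r = 0.83) and Omg (r = 0.81), which codes for a myelin glycoprotein. Aplp1 was most like Taldo1 (r = 0.83), a pentose phosphate enzyme gene, Sez6l2 (r = 0.82) and Nkain2 (r = 0.82). Prnp was most like Exoc5 (r = 0.88), a subunit of the exocyst that tethers vesicles, the clathrin adaptor gene Ap2b1 (r = 0.86) and the lysosome transport gene Arl8b (r = 0.86). Aplp2 was most like Rgs3 (r = 0.81), Inpp5a (r = 0.78) and Plcb4 (r = 0.78), and App most like Vmp1 (r = 0.79), Ttll7 (r = 0.73) and Synj2 (r = 0.73). Among the members themselves, Bace1 and Mapt were closest (r = 0.74), then Aplp1 and Mapt (r = 0.69) and Bace1 and Prnp (r = 0.68). Aplp2 was unlike Prnp (r = -0.11), Bace1 (r = 0.0002) and Aplp1 (r = 0.01).

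Genes that act on or beside these proteins were taken from 8 lists of 80 genes, of which 71 passed the same minimum of 10 CPM. Their CPM are over whole sections and their log2 ratios region-matched. For O-Ctrl over Y-Ctrl, 0 of 71 were at least 1.2-fold higher and 1 was lower, 1.41% called in either direction, beside 2.85% of all genes. Their median log2 ratio was 0.01, beside -0.01 over all genes. For O-Ex over O-Ctrl, 56 of 71 were above 0, with a median of 0.10, while 73.8% of all genes were above 0, with a median of 0.07. Called were 3 of the 71, or 4.23%, beside 6.05% of all genes, so the lists did not hold a larger share of calls than the background in either comparison. The 3 were all higher in O-Ex: the tau kinase gene Mark2 (0.32), the progranulin gene Grn (0.28) and Grm5 (0.27), a glutamate receptor gene.

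The α-secretase gene Adam10, which codes for an enzyme that cuts the amyloid precursor within the amyloid-β stretch, had 53.5 CPM in O-Ex, 51.2 CPM in O-Ctrl and 51.1 CPM in Y-Ctrl. Adam9 had log2 ratios of 0.15 for O-Ex over O-Ctrl and -0.12 for O-Ctrl over Y-Ctrl. Of the 6 measured subunits of γ-secretase, Psenen had 137 CPM in O-Ex, 140.1 CPM in O-Ctrl and 142 CPM in Y-Ctrl. For O-Ctrl over Y-Ctrl the largest ratio of that list was 0.19, for Psen2, a catalytic subunit gene. Of the adaptor and sorting genes, 14 measured, Itm2b had 953 CPM in O-Ex, 950 CPM in O-Ctrl and 987 CPM in Y-Ctrl. The largest ratios there were 0.20 for Apbb2 (O-Ex over O-Ctrl) and -0.16 for Apba1 (O-Ctrl over Y-Ctrl). Ide, whose enzyme degrades insulin and amyloid-β, had 25.2 CPM in O-Ex, 22.8 CPM in O-Ctrl and 23.4 CPM in Y-Ctrl, with log2 ratios of 0.11 for Ide (O-Ex over O-Ctrl) and 0.04 for Ece1 (O-Ctrl over Y-Ctrl), the largest of their list.

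Around tau, 17 kinase and phosphatase genes were measured. None was called for O-Ctrl over Y-Ctrl, beside 2.85% of all genes, and the largest ratio was -0.23 for Cdk5r2, an activator of the tau kinase CDK5. Ppp2r1a, the scaffold of phosphatase 2A, had 475 CPM in O-Ex, 459 CPM in O-Ctrl and 457 CPM in Y-Ctrl. Of 11 other genes of microtubule-associated proteins, 4 were above 0 for O-Ctrl over Y-Ctrl and none was called, the largest being 0.22 for Map7. Stmn1, which codes for a tubulin-binding protein, had 964 CPM in O-Ex, 975 CPM in O-Ctrl and 1059 CPM in Y-Ctrl. Map2, the dendritic relative of tau, had the largest ratio of that list for O-Ex over O-Ctrl, -0.20, with 182 CPM in O-Ex, 217 CPM in O-Ctrl and 219 CPM in Y-Ctrl. Among 5 measured relatives and partners of the prion protein, Rpsa had 1019 CPM in O-Ex, 1067 CPM in O-Ctrl and 986 CPM in Y-Ctrl, and Sprn, which codes for the related shadoo protein, had -0.22 for O-Ctrl over Y-Ctrl.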

How the data were processed

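The deposited values were whole UMI counts, 31053 genes by 4992 barcodes in each section, and were used as deposited. The file headers name Space Ranger 2.0.0, and the genome build was mm10 per the submitters' processing notes. Images and the place of each spot were not used. Spots with at least 3000 UMIs held 97.5% of UMIs in O-Ex, 97.9% in O-Ctrl and 98.1% in Y-Ctrl. The 6 genes, the gene lists, the region naming rule and the 3000 UMI minimum were chosen with earlier results of these data known.

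Spots were clustered with scanpy 1.11.5 and igraph 0.11.9: counts scaled to 10000, logarithm, 2000 variable genes scaled within sections and clipped at 10, 30 principal components, 15 neighbours, Leiden resolution 0.8. The 6 genes, and listed pathway genes that mark no region, were left out of the variable genes. A region was named when at least 4 of its markers were among the 30 leading genes of a cluster (pseudocount 20 CPM). No doublet caller was run. Counts were summed per region and section and scaled to CPM. Ratios carry a pseudocount of 5 CPM, which understates differences of scarce genes, and intervals of ratios come from Poisson counting error. Genes were named by rule: all 6 members, the most abundant and the largest-ratio gene of each list, and the 3 most alike genes of each member over the 57 points. The ratio code was tested on simulated counts. Alternatives covered the spot minimum, thinning, scaling (edgeR 4.0.16 for TMM), pseudocount, region matching, clustering and the gene filter. Protein sequences were not used here, and a few single genes that the naming rule would name are not reported here.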

Additional observations from a re-analysis of the deposited data

How the results depend on the processing

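No paired analysis was possible because each group has 1 section. Over 16 alternatives the log2 ratio of Mapt for O-Ctrl over Y-Ctrl stayed between 0.45 and 0.59, and it was the only one of the 6 genes called under each. For O-Ex over O-Ctrl, 0 of the 6 genes were called except with spots thinned to 3000 UMIs. There 1 was, Aplp2 at 0.26, beside 15.2% of all genes. The number of all genes called for O-Ex over O-Ctrl was 545, and became 1373 with thinned spots, 976 with a pseudocount of 1 CPM, 343 with TMM scaling and 321 with ratios centred on the median of all genes. For O-Ctrl over Y-Ctrl it was 257, and became 949 with thinned spots, 470 with a pseudocount of 1 CPM, 453 with named regions only, 425 over whole sections and 407 with genes down to 2 CPM. The cause was not tested, except that the 2 CPM filter admits 12720 genes in place of 9013. Of calls for O-Ex over O-Ctrl 91.6% were higher in O-Ex, against 56.0% with TMM scaling and 53.6% when centred. Of calls for O-Ctrl over Y-Ctrl 55.6% were higher in O-Ctrl, against 68.1% with regions weighted by spots. That share was 48.5% with a pseudocount of 1 CPM and 48.1% with named regions only. The sign turned for Aplp1 in 2 and Bace1 in 6 of 16 alternatives for O-Ex over O-Ctrl, and for Aplp2 in 7 and Prnp in 5 for O-Ctrl over Y-Ctrl. The other members kept their sign. Scaling without mitochondrial genes left the top and bottom region of each gene in place and moved 11 to 14 of 19 regions by at least 1 place. The region led by Vip and Ptgds was named meninges by the rule, but its leading genes Vip, Igfbp6 and Rasgrf2 also lead the upper cortical layers. Its median was 5493 UMIs in O-Ex, 13129 in O-Ctrl and 9508 in Y-Ctrl. Adding the smaller regions, or leaving out white matter or the region led by Vip and Ptgds, left the counts of called members as they were. These 3 alternatives and the centring were chosen after seeing the data. Bace1, with 2140 UMIs in O-Ex, 2359 in O-Ctrl and 2323 in Y-Ctrl, is limited most by depth.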
